A study of Homo sapiens with 6 samples.

Results

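The 9 genes described here are NFE2L2, which encodes the transcription factor NRF2, its inhibitor KEAP1, its DNA-binding partner MAFG and 6 of its target genes, HMOX1, NQO1, TXNRD1, SRXN1, OSGIN1 and PGD. They were chosen by gene symbol from a table of 16798 coding genes, and all 9 were found. Bulk RNA-seq was performed on COV434, an immortalized human cell line that carries the label granulosa cells (GCs). The control group (n = 3) is labelled WT and has no treatment in its labels. The 4HC group (n = 3) is labelled CTX-induced, and the protocol, whose text stands with all 6 samples, gives 15 µM 4HC for 24 h. 4HC (4-hydroxycyclophosphamide) is the active metabolite of cyclophosphamide (CTX), an alkylating drug that damages DNA.

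All 6 samples came from 1 cell line, and the labels do not say whether the replicates were separate cultures, so p-values measure the spread between these samples, which may be technical. Of 15 GC markers, 13 were in the table and 9 of these were below 1 TPM (a level corrected for transcript length and library size) in every sample. FOXL2, which defines GCs, reached at most 0.11 TPM. FSHR and CYP19A1 reached at most 0.01 and 0.02 TPM. Other GC markers were expressed. HSD17B1 lay between 19.2 and 24.6 TPM in control and between 21.9 and 22.8 TPM in 4HC. AMH lay between 3.94 and 6.73 TPM in control and between 4.19 and 6.27 TPM in 4HC. INHA lay between 0.72 and 1.73 TPM in control and between 0.8 and 0.99 TPM in 4HC. WT1 lay between 131 and 135 TPM in control and between 103 and 109 TPM in 4HC, and the sum of the GC markers moved with it, from 159 to 167 TPM in control to 132 to 138 TPM in 4HC. Without WT1 the GC markers summed to 24.2 to 33.4 TPM in control and 28 to 29.3 TPM in 4HC. Of 14 markers of other ovarian cells, 7 were below 1 TPM in every sample, and the list summed to 39.6 to 42.3 TPM in control and 41.6 to 43.8 TPM in 4HC. ZP3, the highest of these, lay between 16.4 and 19.9 TPM in control and between 17.7 and 21.1 TPM in 4HC. DCN lay between 10.5 and 12.1 TPM in control and between 10.2 and 11.8 TPM in 4HC. KRT8 lay between 5.52 and 7.79 TPM in control and between 7.06 and 7.26 TPM in 4HC. The part of these markers in the results was not tested. In bulk RNA, fewer cells of a type and less RNA per cell cannot be told apart.

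NRF2 drives the genes that a cell uses against oxidants and electrophiles. In resting cells KEAP1, an adaptor of the CUL3 ubiquitin ligase, holds NRF2 in the cytoplasm and sends it to the proteasome. Oxidants and electrophiles modify cysteines of KEAP1, NRF2 then accumulates, enters the nucleus, pairs with a small MAF protein such as MAFG and binds antioxidant response elements. This control acts mainly on the protein, so the activity of NRF2 cannot be read from the mRNA of NFE2L2 alone. HMOX1 encodes heme oxygenase 1 (HO-1), which is also held down by the repressor BACH1 and released by heme.

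In 4HC-treated cells, HMOX1, NQO1, OSGIN1 and KEAP1 were upregulated, while TXNRD1, SRXN1 and PGD had fold changes of 0.99, 0.987 and 1.01 and did not pass the test. With a threshold of 0.05 on the adjusted p-value, 4 of the 9 genes were higher and 0 were lower, and among all 12368 genes tested 19.2% were higher and 17.1% lower by the same rule (36.4% in either direction). Over the 9 genes the log2 fold changes had a median of 0.131 (0.0851 without 4HC replicate 2), and over all genes tested 0.00475. None of the 9 reached a fold change of 2, against 1.15% of all genes that had such a change with an unadjusted p-value under 0.05. The count of upregulated genes among the 9 lay between 3 and 5 in all alternatives tried. The genes were tested with edgeR's quasi-likelihood test on expected counts, and expression is given as CPM (counts scaled to 1e+06 per library by the TMM method), with the SD over 3 samples after ±. All 9 genes passed the filter on low counts.

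**Figure D1:**
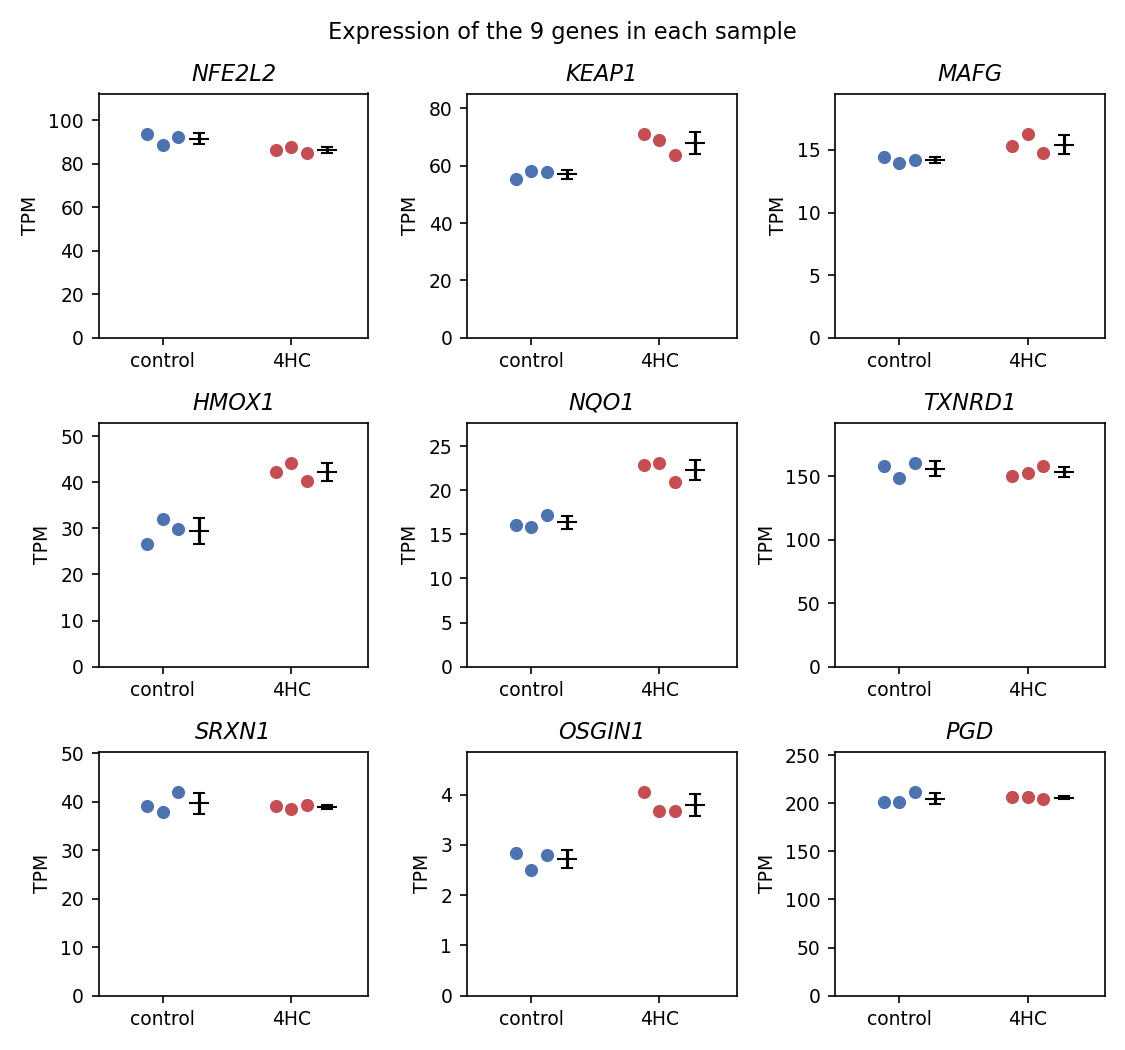
Expression of the 9 genes in TPM (vertical axes, each starting at 0) in the control (blue) and 4HC (red) samples, with 1 point per sample and the mean ± SD (n = 3) in black. HMOX1, NQO1, OSGIN1, KEAP1 and MAFG have all 3 red points above all 3 blue points, NFE2L2 has them below, and TXNRD1, SRXN1 and PGD overlap.

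HMOX1 (NCBI Gene 3162) lies on chromosome 22 of GRCh38 from 35381096 to 35394207. NQO1 (NCBI Gene 1728) lies on chromosome 16 from 69709401 to 69732999, and OSGIN1 (NCBI Gene 29948) on the same chromosome from 83953240 to 83966332. TXNRD1 (NCBI Gene 7296) lies on chromosome 12 from 104215396 to 104350307, SRXN1 (NCBI Gene 140809) on chromosome 20 from 646615 to 653200, and PGD (NCBI Gene 5226) on chromosome 1 from 10399044 to 10420511. The regulators NFE2L2 (NCBI Gene 4780), KEAP1 (NCBI Gene 9817) and MAFG (NCBI Gene 4097) lie on chromosome 2 from 177229191 to 177267010, on chromosome 19 from 10481837 to 10503356 and on chromosome 17 from 81918270 to 81927735.

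The promoters of the genes were searched for the core of the antioxidant response element, TGACNNNGC, on both strands. This core includes TGACTCAGC, which also holds an AP-1 site. RefSeq promoter sequences (GRCh38.p14, from 250 bases before to 50 after a gene's start) were matched for 8 of the 9 genes, in 11 windows, as some genes have more than 1 start. HMOX1 had no window, so its promoter was not searched. The core was found in 4 of the 11 windows, which belong to KEAP1, TXNRD1 and PGD, and in 13.3% of all 34943 windows of this length (14.3% of those of genes tested). It was not found in the windows of NQO1, OSGIN1, MAFG, NFE2L2 and SRXN1. The windows below show a gene that was upregulated and holds the core, then 2 genes that hold it and did not pass the test, then NQO1, which was upregulated and does not hold it. They run 5′ to 3′ on the strand of the gene, with the matches in capitals.
KEAP1 (minus strand, chr19:10502722-10503021): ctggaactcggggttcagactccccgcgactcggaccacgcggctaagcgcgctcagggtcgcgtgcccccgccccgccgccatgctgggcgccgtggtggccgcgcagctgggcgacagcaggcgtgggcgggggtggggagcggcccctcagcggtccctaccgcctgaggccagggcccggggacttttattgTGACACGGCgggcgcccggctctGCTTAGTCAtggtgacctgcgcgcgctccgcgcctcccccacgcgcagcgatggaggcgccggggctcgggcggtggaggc
TXNRD1 (plus strand, chr12:104286782-104287081): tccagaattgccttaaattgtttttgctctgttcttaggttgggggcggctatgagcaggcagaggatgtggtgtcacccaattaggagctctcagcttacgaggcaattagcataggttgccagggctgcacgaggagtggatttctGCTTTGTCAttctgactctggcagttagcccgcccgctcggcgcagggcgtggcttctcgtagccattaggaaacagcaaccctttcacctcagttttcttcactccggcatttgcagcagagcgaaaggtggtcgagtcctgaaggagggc
PGD (plus strand, chr1:10398814-10399113): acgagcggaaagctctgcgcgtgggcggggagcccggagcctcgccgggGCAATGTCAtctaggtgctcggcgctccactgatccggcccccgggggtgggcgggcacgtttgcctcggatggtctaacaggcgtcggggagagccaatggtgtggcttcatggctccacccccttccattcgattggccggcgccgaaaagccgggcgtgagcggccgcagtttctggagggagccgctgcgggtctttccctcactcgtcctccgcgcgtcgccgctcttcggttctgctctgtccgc
NQO1 (minus strand, chr16:69726511-69726810): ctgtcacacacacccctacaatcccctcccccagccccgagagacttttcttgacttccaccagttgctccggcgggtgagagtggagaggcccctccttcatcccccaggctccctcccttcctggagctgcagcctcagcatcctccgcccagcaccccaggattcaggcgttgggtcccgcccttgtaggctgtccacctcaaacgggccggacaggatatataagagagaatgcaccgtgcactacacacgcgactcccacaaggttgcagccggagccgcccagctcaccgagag
In KEAP1 the first match begins 54 bases before the start used for its window and reads on the strand of the gene. The second begins 31 bases before that start and reads on the opposite strand. Both matches lie downstream of the starts of the main KEAP1 transcripts, NM_012289 (10502896) and NM_203500 (10503741), in GENCODE release 29. Another KEAP1 window, chr19:10503307-10503606, holds 0 matches. The start of NM_203500 lies upstream of this window and of the printed one. The match in the printed TXNRD1 window begins 102 bases before its start, and that of PGD 201 bases, both on the opposite strand. The printed TXNRD1 window lies downstream of the start of the main transcript, NM_182729, at 104286682. Another TXNRD1 window, chr12:104215529-104215828, holds 2 further matches. They begin 99 bases before its start on the strand of the gene and 8 bases before it on the opposite strand. The NQO1 window belongs to a start downstream of that of its main transcript, NM_000903, which GENCODE release 29 places at 69726951. The NFE2L2 windows also lie downstream of the start of its main transcript, NM_006164, at 177265131. A match is a sequence of letters and not a bound site, and elements outside these windows were not searched.

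HMOX1 encodes the enzyme that breaks heme down to biliverdin, carbon monoxide and ferrous iron. Its control samples had 21.4, 26.2 and 24.0 CPM, and its 4HC samples 34.2, 36.2 and 32.8 CPM. All 4HC samples lay above all controls. These values rest on 348 to 425 expected counts per control and 535 to 587 per 4HC sample. HMOX1 thus rose by 0.53 on the log2 scale (SE 0.066, 95% interval 0.39 to 0.66, adjusted p = 4.31e-09). Measured against its constitutive relative HMOX2 within each sample, which needs no scaling between samples, the TPM ratio of HMOX1 to HMOX2 was 0.412, 0.465 and 0.484 in the controls and 0.665, 0.692 and 0.683 in 4HC. HMOX2 itself had a log2 fold change of -0.04 (adjusted p = 0.565).

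NQO1 reduces quinones with NADPH or NADH in a 2-electron step. The controls had 22.6, 22.6 and 24.1 CPM and the 4HC samples 32.2, 33.2 and 29.9 CPM, and the lowest 4HC sample was above the highest control. NQO1 rose by 0.46 on the log2 scale (SE 0.064, adjusted p = 6.61e-08). Its paralog NQO2 rose as well, from 29.7 ± 1.28 to 35.0 ± 0.976 CPM (log2 fold change 0.24, adjusted p = 0.00117). The TPM ratio of NQO1 to NQO2 was 0.275 ± 0.0209 in control and 0.316 ± 0.0251 in 4HC, with overlapping groups.

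OSGIN1, an oxidative stress-induced growth inhibitor, was the least abundant of the 9 genes. It had 48, 43 and 48 expected counts in the controls and 70, 63 and 63 in 4HC, or 2.83 ± 0.165 and 3.99 ± 0.205 CPM. The groups did not overlap, and the log2 fold change was 0.49 with a wide 95% interval of 0.15 to 0.84 (adjusted p = 0.0195). The call was lost with DESeq2 (adjusted p = 0.101) and when control replicate 2 or 4HC replicate 1 was left out (adjusted p = 0.0697 and 0.0786), and the log2 fold change kept its sign in all 14 alternatives. In GENCODE release 29 OSGIN1 shares 481 exonic bases with AC009119.2, a coding gene model on the same strand that is not a row of the gene table.

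TXNRD1, SRXN1 and PGD are classic NRF2 targets as well, and none of them passed the test. TXNRD1, the cytosolic thioredoxin reductase, had 338, 321 and 341 CPM in control and 321, 330 and 340 CPM in 4HC. SRXN1, sulfiredoxin, which repairs overoxidized peroxiredoxins, had 56.0, 54.6 and 59.7 CPM in control and 55.9, 55.7 and 56.5 CPM in 4HC. PGD, which makes NADPH in the pentose phosphate pathway, had 254, 257 and 266 CPM in control and 261, 265 and 260 CPM in 4HC. In all 3 genes the groups overlapped. The 95% intervals of the fold change were 0.945 to 1.04 for TXNRD1, 0.921 to 1.06 for SRXN1 and 0.964 to 1.06 for PGD, and their upper ends lay below the lower ends of the intervals of HMOX1 (1.31) and NQO1 (1.26). The adjusted p-values were 0.775, 0.801 and 0.764. In GENCODE, SRXN1 shares 2292 exonic bases with AL121758.1, a coding gene model that is not in the gene table. Within each sample the TPM ratio of HMOX1 to TXNRD1 was 0.168, 0.215 and 0.187 in the controls and 0.282, 0.290 and 0.255 in 4HC, without overlap. An exact permutation test of 3 against 3 samples cannot give a p-value below 0.1.

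**Figure D2:**
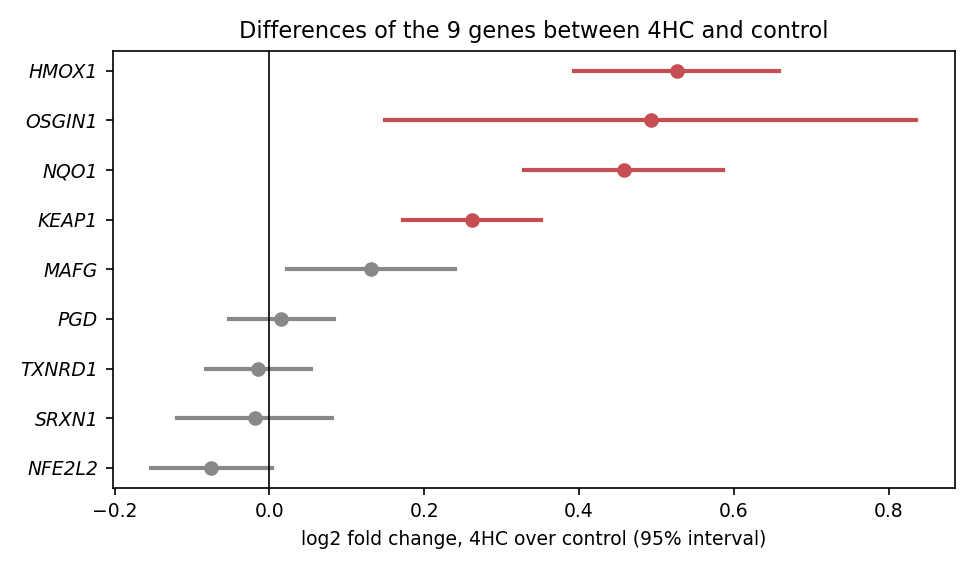
Log2 fold change of 4HC over control (horizontal axis) for the 9 genes, with the 95% interval of edgeR's fit (n = 3 per group) as lines. Red marks an adjusted p-value under 0.05. The intervals of TXNRD1, SRXN1 and PGD, which each include 0, end below the lowest values of those of HMOX1, NQO1, KEAP1 and OSGIN1.

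Of the regulators, KEAP1 was upregulated. Its controls had 79.4, 84.3 and 82.6 CPM and its 4HC samples 102, 101 and 92.5 CPM, and the groups did not overlap. KEAP1 rose by 0.26 on the log2 scale (SE 0.044, adjusted p = 4.03e-06). NFE2L2 had 132, 127 and 130 CPM in the control samples and 122, 126 and 121 CPM in the 4HC samples. All 4HC samples lay below all controls, and the log2 fold change of -0.07 (95% interval -0.15 to 0.00327) did not pass the test (adjusted p = 0.13). The TPM ratio of KEAP1 to NFE2L2 within a sample was 0.590, 0.655 and 0.627 in control and 0.821, 0.787 and 0.750 in 4HC. The ratio was higher in every 4HC sample than in any control.

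MAFG had 43.9, 42.8 and 42.8 CPM in the control samples and 46.4, 50.2 and 45.3 CPM in the 4HC samples. The groups did not overlap, the log2 fold change was 0.13 (95% interval 0.02 to 0.24) and the adjusted p-value of 0.0501 lay just above the threshold. MAFG passed in 2 of 14 alternatives, namely when library size was the only scaling and when 4HC replicate 3 was left out (adjusted p = 0.0229 and 0.0263). MAFG shares 105 exonic bases with SIRT7 on the same strand in GENCODE, and 224 with AC145207.8 on the opposite strand. The largest overlap of NFE2L2 was 1054 bases with AC019080.1 on the same strand. That of NQO1 was 575 bases with AC092115.2 on the opposite strand. Counting all 9 genes, the groups did not overlap in 5 genes that were higher in 4HC and 1 that was lower, against 23.4% and 21.9% of all genes tested.

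On the TPM scale, which allows levels to be compared between genes, the order in control was PGD (205 TPM), TXNRD1 (156 TPM), NFE2L2 (91.6 TPM), KEAP1 (57.1 TPM), SRXN1 (39.6 TPM), HMOX1 (29.5 TPM), NQO1 (16.4 TPM), MAFG (14.2 TPM) and OSGIN1 (2.71 TPM). No neighbours in this order had overlapping values over the 3 controls. The genes that did not pass the test were thus PGD, TXNRD1 and NFE2L2, the 3 most abundant, with SRXN1 and MAFG. In 4HC the order was the same except that HMOX1 (42.2 TPM) stood above SRXN1 (38.9 TPM), and again no neighbours overlapped.

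The deposited transcript table held 32 transcripts of these genes, of which 25 passed the filter. The reads of HMOX1, OSGIN1 and SRXN1 were each assigned to 1 transcript. With edgeR's quasi-likelihood test over 42216 transcripts, 0 of the 25 had an adjusted p-value under 0.05 and 4 had an unadjusted p-value under 0.05, against 1.29% (0.706% higher and 0.587% lower) and 11.0% of all transcripts. The biological coefficient of variation was 0.724 for transcripts and 0.0277 for genes. DESeq2 called 4 of the 25, all higher in 4HC, against 3.48% of all transcripts that it called higher. These were NM_002133 of HMOX1, NM_000903 of NQO1, NM_203500 of KEAP1 and NM_002359 of MAFG. With library size as the only scaling, edgeR called 1, which was higher, against 0.891% of all transcripts.

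For KEAP1, most reads were assigned to a pair of transcripts that encode the same protein of 624 residues and differ in their start. NM_012289 starts at 10502896 on chromosome 19 in GENCODE, inside the KEAP1 window printed above, and NM_203500 starts upstream at 10503741. The counts of NM_203500 were 247, 369 and 347 in the controls and 466, 454 and 460 in 4HC, and the groups did not overlap. Its log2 fold change of 0.52 had an SE of 0.15 (adjusted p = 0.248 with edgeR and 0.0292 with DESeq2). NM_012289 had 987, 979 and 961 counts in the controls and 1189, 1156 and 956 in 4HC, with overlapping groups and a log2 fold change of 0.17 (adjusted p = 0.616). The share of KEAP1 counts that fell to NM_203500 was 19.2%, 26.9% and 25.4% in the controls and 27.5%, 27.8% and 30.4% in 4HC.

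For NQO1, NM_000903, which encodes the full protein of 274 residues, took 82.5%, 80.8% and 82.5% of the counts in the controls and 83.4%, 90.3% and 87.4% in 4HC. Its log2 fold change of 0.55 had an SE of 0.082 (adjusted p = 0.0501 with edgeR and 2.86e-06 with DESeq2). NM_001025434, which encodes 236 residues, had 48.4 ± 4.22 counts in control and 56.2 ± 16.8 in 4HC. For MAFG, NM_002359 took 82.6% ± 7.39 of the counts in control and 93.9% ± 6.69 in 4HC, with overlapping groups, and both of its transcripts encode 162 residues. For NFE2L2, NM_006164 (605 residues) took 84.9% ± 2.00 in control and 85.4% ± 0.352 in 4HC. NM_001145412, which starts its protein at a later codon and encodes 589 residues, took 8.91% ± 1.73 and 8.84% ± 0.601. For TXNRD1, NM_182729 took 77.7% ± 2.00 and 78.0% ± 2.11. These shares come from reads divided between transcripts with common exons and are less certain than the values of genes.

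**Figure D3:**
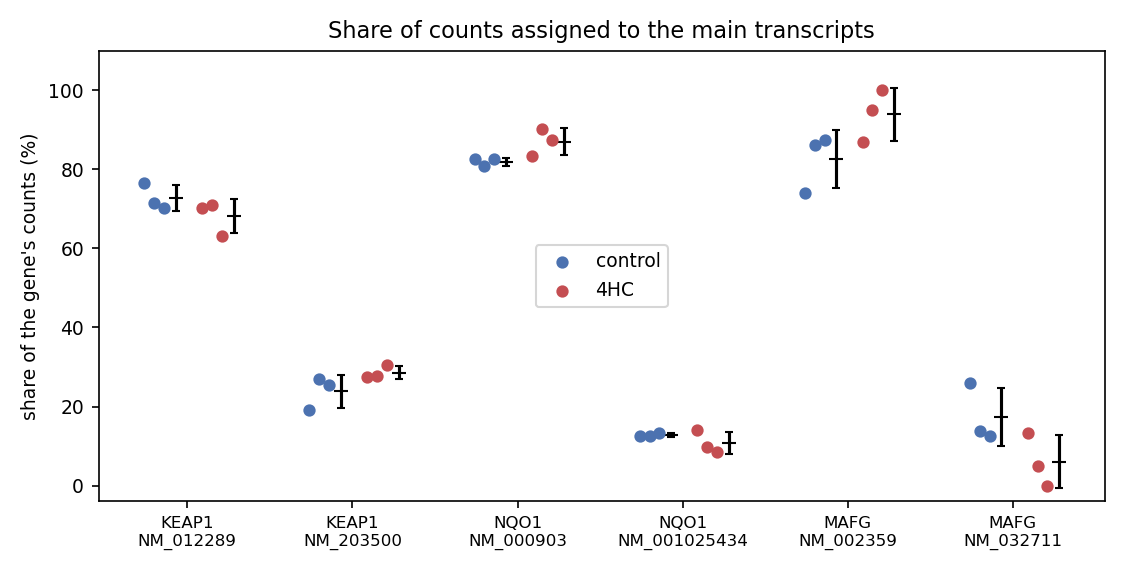
Share of a gene's expected counts (vertical axis, percent) assigned to the main transcripts of KEAP1, NQO1 and MAFG in each control (blue) and 4HC (red) sample, with the mean ± SD (n = 3) in black. The groups do not overlap for NM_203500 of KEAP1 and NM_000903 of NQO1, and overlap for the other 4 transcripts.

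Other genes of the pathway were taken from lists by role, which were chosen with earlier results of these data known. Of 69 such genes, 57 could be tested, while 9 had too few counts and 3 had no row under the symbol used. By the same threshold 18 were higher (31.6%) and 11 lower (19.3%), against 19.2% and 17.1% of all genes. The median was 0.0464 on the log2 scale, and it was 0.019 without control replicate 3 and 0.0239 without 4HC replicate 2. The count of lower genes was 7 without 4HC replicate 2. Of the 29 calls, 17 were made in all 14 alternatives. Among genes that control NRF2, 2 of 13 were higher and 4 lower (15.4% and 30.8%, against 19.2% and 17.1% of all genes). SQSTM1 (p62), which binds KEAP1 and takes it to autophagy, rose from 126 ± 3.89 to 152 ± 7.96 CPM (log2 fold change 0.28, adjusted p = 1.7e-07). The coactivator EP300 fell by 0.20 on the log2 scale. It alone among the 4 lower genes was called in all 14 alternatives. RXRA, a nuclear receptor that binds NRF2, rose by 0.15 (adjusted p = 0.0383), a call lost in 8 of 14 alternatives, and CUL3, the scaffold of the KEAP1 ligase, fell by 0.11 (adjusted p = 0.0235), a call lost in 7 of 14 alternatives.

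Among relatives of NRF2 and MAFG that bind the same kind of element, 1 of 7 was higher and 4 were lower (14.3% and 57.1%, against 19.2% and 17.1% of all genes). The factors NFE2, BACH2, NFE2L1 and NFE2L3 fell by 0.39, 0.50, 0.22 and 0.18 on the log2 scale. NFE2 had 18.7, 19.2 and 18.6 CPM in control and 13.5, 15.0 and 14.7 CPM in 4HC. The small MAF gene MAFF rose from 6.53 ± 0.22 to 8.45 ± 0.793 CPM (log2 fold change 0.37, adjusted p = 0.0106), a call lost with DESeq2 and without 4HC replicate 2. BACH2 lost its call without control replicate 2 and without 4HC replicate 2, and NFE2L3 without control replicate 1. BACH1, the repressor of HMOX1, had 23.9 ± 2.15 CPM in control and 25.8 ± 0.615 CPM in 4HC (log2 fold change 0.11, adjusted p = 0.205).

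Most of the targets in heme and iron handling rose. Of 7 such genes, 6 were higher and 0 lower (85.7% against 19.2% of all genes), the median was 0.36 on the log2 scale, and the same 6 were called in all 14 alternatives. The biliverdin reductases BLVRB and BLVRA rose by 0.69 and 0.28 on the log2 scale. BLVRB had 42.6, 42.5 and 41.7 CPM in control and 65.4, 71.3 and 67.6 CPM in 4HC. The iron-storing ferritin chains FTL and FTH1 rose by 0.67 and 0.36, the heme transporter SLC48A1 by 0.36 and the porphyrin transporter ABCB6 by 0.34. FECH, which inserts iron into protoporphyrin to make heme, had a log2 fold change of 0.08 (adjusted p = 0.105).

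In glutathione and cystine metabolism, 2 of 6 tested genes were higher (33.3%) and 0 lower, against 19.2% and 17.1% of all genes. GSTP1, a glutathione transferase, rose from 342 ± 6.62 to 448 ± 8.25 CPM (log2 fold change 0.39, adjusted p = 9.32e-15), and GSTM3 rose by 0.23 (adjusted p = 0.0074), a call lost with DESeq2 and without control replicate 1. The rate-limiting enzyme of glutathione synthesis did not pass in either subunit, with log2 fold changes of 0.07 for GCLC (95% interval -0.06 to 0.21) and 0.08 for GCLM (95% interval -0.03 to 0.18). The cystine importer SLC7A11 had 19.3 ± 0.475 CPM in control and 17.6 ± 1.18 CPM in 4HC (log2 fold change -0.13, adjusted p = 0.171). In the thioredoxin system, 2 of 3 were higher (66.7%, against 19.2% of all genes). TXN rose by 0.13, a call lost without 4HC replicate 2, and PRDX1 rose by 0.09, a call lost in 5 of 14 alternatives.

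In NADPH supply, 0 of 4 were higher and 1 was lower (25%), against 19.2% and 17.1% of all genes. IDH1 fell by 0.34 on the log2 scale (adjusted p = 1.12e-07). Among enzymes of quinones, carbonyls and epoxides, 2 of 5 were higher and 1 lower (40% and 20%, against the same shares of all genes). EPHX1, an epoxide hydrolase, fell by 0.15. CBR1 and AKR1B1 rose by 0.14 and 0.10, calls lost in 6 and 11 of 14 alternatives. Among export and other genes, 2 of 7 were higher and 1 lower (28.6% and 14.3%, against the same shares of all genes). ABHD4, a lipid hydrolase, rose from 8.85 ± 0.147 to 16.9 ± 1.15 CPM (log2 fold change 0.94, adjusted p = 4e-12). SESN2, sestrin 2, which is also a target of p53, rose from 83.1 ± 5.21 to 133 ± 5.39 CPM (log2 fold change 0.68). The exporter ABCC4 fell by 0.27. Among paralogs of the member enzymes, NQO2 was the 1 of 5 that passed (20%, against 36.4% of all genes in either direction).

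The genes whose profile over the 6 samples was closest to that of HMOX1 were MOSPD1, WHRN, RAB15, ARHGAP10 and CBX7, out of 10272 other genes with a mean of at least 5 CPM. Closeness was the root mean square difference of log2 CPM after each gene was centred on its own mean, and it was between 0.0324 and 0.0467. The difference between the groups enters this measure, and the 5 genes had log2 fold changes of 0.512 to 0.591, against 0.526 for HMOX1. None of the 5 is among the NRF2 genes listed here, and shared regulation was not tested.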

How the data were processed

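RNA of 6 COV434 samples was sequenced. Per the labels the authors filtered reads with SOAPnuke and used the Dr. Tom system, and the submitters' processing notes name HISAT2, Bowtie2, RSEM 1.3.1, DESeq2 1.4.5 and GRCh38.p13, with no role stated. The authors deposited expected counts per gene and per transcript (85.5% of gene values were whole numbers), which sum to 16133786 to 16702316 per sample, and TPM values scaled by transcript length to 1e+06 per sample. Library strandedness is not given in the sources used here. The authors' own fold changes and p-values were not used, and a second gene table with the same values was left out.

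Rounded expected counts went into edgeR 4.0.16, run in R 4.3.3 (TMM, filterByExpr, quasi-likelihood test, condition as the only term), with Benjamini-Hochberg adjustment over 12368 genes or 42216 transcripts. The study's methods name DESeq2, which was an alternative here (version 1.42.0). The others were RLE size factors, library size alone, no filter, at least 10 counts in every sample, limma 3.58.1 on log2(TPM + 1) or log2(TPM + 0.1), a replicate block and the removal of each sample. Transcript starts and shared exons came from GENCODE release 29. Control and 4HC samples separated on the first principal component (64.3%), and replicates differed by more than sampling noise (chi-square of 1.7 to 2.47 per gene).

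All 9 genes were named. From each other list, up to 3 genes with the largest change past the threshold were named, relatives of NRF2 and MAFG by value, and the 5 genes closest to HMOX1. CUL3, BLVRA, SLC48A1, ABCB6, FECH, GCLC, GCLM, SLC7A11 and HMOX2 fall outside this rule and were chosen with their values known. The genes and lists were chosen with earlier results of these data known. Some items are not reported here.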

Additional observations from a re-analysis of the deposited data

How the results depend on the processing

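HMOX1, NQO1 and KEAP1 were called higher in all 14 alternatives, with log2 fold changes of 0.453 to 0.595, 0.423 to 0.50 and 0.228 to 0.304. OSGIN1 lost its call with DESeq2 (log2 fold change 0.488, adjusted p = 0.101) and ranged from 0.444 to 0.522 over the fits that left out 1 sample. MAFG gained a call with library size as the only scaling (log2 fold change 0.152) and lay between 0.0851 and 0.161 when samples were left out. NFE2L2 stayed below 0 in all alternatives and passed in none. Values near 0 changed sign and passed in no alternative. With library size as the only scaling TXNRD1 was at 0.00613 and SRXN1 at 0.0016. With each sample left out, TXNRD1 lay between -0.0421 and 0.00115, SRXN1 between -0.0476 and 0.0177, and PGD between -0.000344 and 0.033. For transcripts of these genes, edgeR called 0, DESeq2 called 4 and edgeR with library size as the only scaling called 1, against 1.29%, 3.48% and 0.891% of all transcripts (for the last 2 those called higher), and the cause was not tested. Samples with the same replicate number were not paired, as the correlations of their deviations from the group means were -0.0245, 0.0458 and 0.0651 and not every sample correlated best with its own number. With the replicate number as a block 4 of the 9 genes, 27 of the other pathway genes and 4213 of all genes were called, against 4, 29 and 4497 without it. OSGIN1 rests on 43 to 70 counts per sample.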
